A study of Homo sapiens with 6 samples.

Results

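Chromosome 11 of the colon cancer line SNU-C1 held a contact between a pair of short DNA pieces more than 10 Mb apart on the short arm, and the contacts, coverage, compartments and insulation of that chromosome were examined in 4 cancer cell lines. The bin pairs were all those of 40-kb bins between 7 and 123 Mb of chromosome 11 in hg19, of which 4203550 exist and 3600586 had both bins usable, out of 147781476 bin pairs within chromosomes. The window held 2900 bins, of which 2684 were usable. In situ Hi-C, which joins and sequences DNA ends that lie close together in crosslinked nuclei after a cut with MboI, had been made for SW480 and SNU-C1, both labelled as colon cancer lines, HCC1954, a breast cancer line, and OE33, an esophageal adenocarcinoma line. SNU-C1, HCC1954 and OE33 were represented by 1 map each, and SW480 by replicates 1 and 2 and a map that pooled both. No treatment was given for any of the lines, the methods state that Hi-C was made in duplicate but the sources used here do not give whether the map of SNU-C1, HCC1954 or OE33 holds 1 library or pools both, and no expression was measured, so the labelled tissue could not be set against marker genes. The contact and the pieces were selected on their measured values in SNU-C1 against the other lines, so these values are a description and carry no test.

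In Hi-C data, contacts between bins of a chromosome fall with their distance. Where DNA from distant places has been joined, bins on both sides of the junction are close on the derived chromosome and show contacts far above those of the same distance elsewhere. DNA present in many copies gives more read pairs in total, and such copies can lie within a chromosome or on circular DNA outside it. Contact maps also show compartments, which separate gene-rich active from inactive chromatin, and topologically associating domains (TADs), whose boundaries appear as minima of the insulation score. The second of the pieces contains *CD44*, which encodes a surface receptor for hyaluronan that is widely expressed on epithelial and stem-like tumour cells.

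The 250 bases before the starts of *CD44* and of *SLC1A2*, a glutamate transporter gene that overlaps the end of the same piece, are shown because the start of *CD44* lay inside the raised bins and the start of *SLC1A2* outside them. The bin with the bases before *CD44* had a relative coverage of 18.4 in SNU-C1, and the bin with those before *SLC1A2* had 0.819. Both were read from the GRCh37 genome at the gene starts of GENCODE v44 lifted to that build, 5′ to 3′ on the strand of the gene. Capitals mark the letters GATC, the site that MboI cuts, which reads the same on both strands. The *CD44* window lies at chr11:35160179-35160428 on the plus strand, and the *SLC1A2* window at chr11:35441611-35441860 on the minus strand.
*CD44*: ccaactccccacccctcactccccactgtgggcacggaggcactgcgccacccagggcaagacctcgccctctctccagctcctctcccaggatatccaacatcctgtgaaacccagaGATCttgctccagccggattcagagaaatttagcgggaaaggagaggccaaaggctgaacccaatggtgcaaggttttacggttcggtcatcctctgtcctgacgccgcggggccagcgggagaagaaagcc
*SLC1A2*: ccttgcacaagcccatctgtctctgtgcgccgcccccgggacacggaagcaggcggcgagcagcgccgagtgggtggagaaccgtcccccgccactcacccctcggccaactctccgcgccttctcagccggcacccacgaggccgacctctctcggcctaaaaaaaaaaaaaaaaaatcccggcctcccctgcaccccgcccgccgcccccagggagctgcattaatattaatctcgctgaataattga
The *CD44* window had 1 such site and 11 CpG dinucleotides, and the *SLC1A2* window had 0 sites and 22 CpG dinucleotides. Of the 1317 windows of 250 bases before protein-coding genes on chromosome 11, 456 (34.6%) held the site.

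Read pairs recovered from the corrected values numbered 115014329 within chromosomes in SNU-C1, 133401873 in SW480, 93501178 in HCC1954 and 89418425 in OE33. In the window they numbered 4847128 in SNU-C1, 5889079 in SW480, 3698320 in HCC1954 and 3818478 in OE33. SW480 replicates 1 and 2 had 2914834 and 2973346 read pairs there. Intervals are exact 95% Poisson intervals of these counts. They cover counting error only, leave out variation between libraries, and take read pairs as independent molecules, which is not known without molecular identifiers. With 1 map for each of 3 lines no comparison between lines was tested, and the SW480 replicates gave the only spread between libraries.

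Coverage of a bin was its number of read pairs within the chromosome over the median autosomal bin of the line, and relative coverage was that value over the median of the other 3 lines. Such values of at least 4 were found in 19 bins of SNU-C1, in 2 runs. The first piece spanned 23.68 to 24.00 Mb (320 kb, 8 bins), with relative coverage from 18.7 to 23.3 and a median of 19.8. Over the same bins the median was 1.41 in SW480, with 1.42 and 1.41 in replicates 1 and 2, 0.358 in HCC1954 and 0.712 in OE33. Every bin of the piece in SNU-C1 was thus above every bin of it in the other lines, where the highest value was 1.5.

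The second piece spanned 34.92 to 35.36 Mb (440 kb, 11 bins), with relative coverage from 18.4 to 24.8 and a median of 22.3 in SNU-C1. The median there was 1.14 in SW480, with 1.12 and 1.15 in replicates 1 and 2, 0.838 in HCC1954 and 0.80 in OE33. Coverage changed from these levels to those of the flanks within 1 bin of each end. The bins next to the first piece had 1.29 and 1.42 in SNU-C1, and those next to the second had 1.63 and 2.24, so the lowest bin inside either run had 18.4 and the highest bin just outside had 2.24. The bins next to the second piece, at 34.88 and 35.36 Mb, were above those beyond them, which had 0.983 and 0.928. Whether the edges of the piece fell inside these bins was not tested. The only other run in the 4 lines lay in HCC1954 at 103.32 to 103.40 Mb in *DYNC2H1*, a gene of the motor of transport within cilia, with 4.06 and 4.19 just above the threshold and neighbours of 3.64 and 3.99 just below it. The highest bin of SW480 had 2.34 and that of OE33 3.77.

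**Figure D1:**
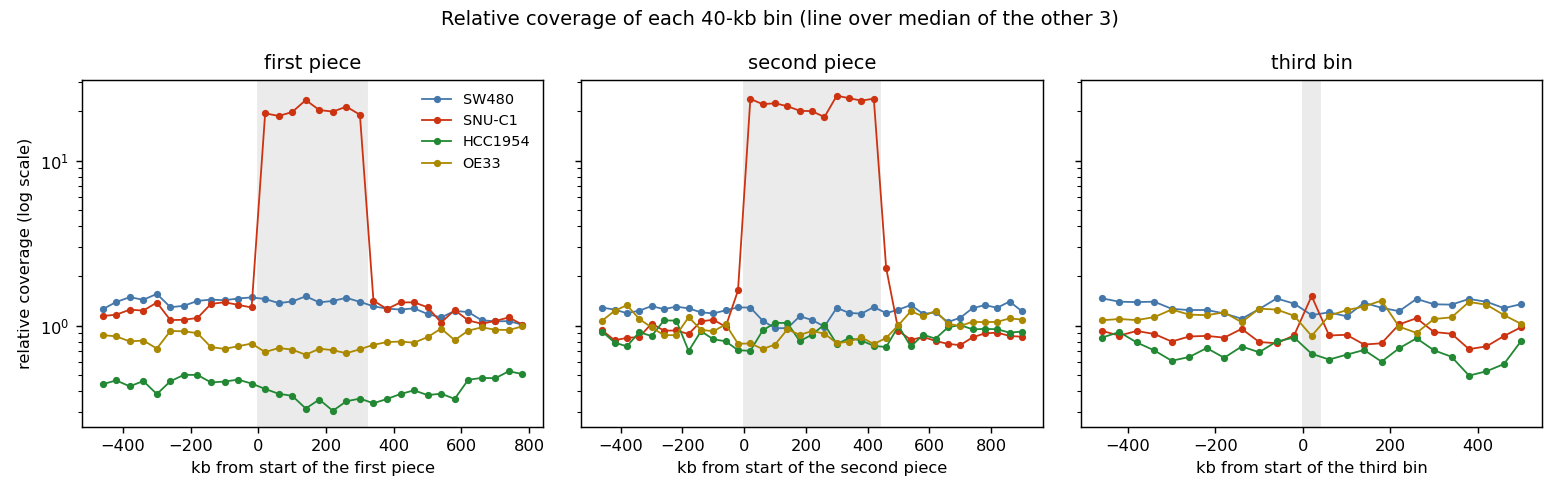
Relative coverage of 40-kb bins (log scale) around the first piece, the second piece and the third bin, against distance in kb from the start of each, for the 4 lines. Shading marks each place. SNU-C1 lies between 18.4 and 24.8 in the bins of both pieces and rises to 1.51 in the third bin, while the other lines stay at or below 1.5 in all 3 shaded places. Coverage of the third bin includes the read pairs with the pieces by which it was chosen.

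The second piece contained *PDHX*, a structural component of the pyruvate dehydrogenase complex, and *CD44* over their whole length. *CD44* (chromosome 11, 35160429 to 35253949, plus strand) had a median relative coverage of 24.0 in SNU-C1, 1.19 in SW480, 0.838 in HCC1954 and 0.80 in OE33. *PDHX* (34937376 to 35042138, plus strand) had 22.2 in SNU-C1, 1.02 in SW480, 0.986 in HCC1954 and 0.772 in OE33. Both genes were thus raised throughout in SNU-C1 and near or below 1.2 in the other lines.

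Each edge of the second piece crossed a gene on the minus strand. *APIP* (34874641 to 34937926), an enzyme gene of the methionine salvage pathway, had bins from 0.983 to 23.7 in SNU-C1, and its start lay inside the piece. *SLC1A2* (35272752 to 35441610) had bins from 0.819 to 24.0, and its start lay outside. The raised part of *APIP* was therefore its 5′ end and that of *SLC1A2* its 3′ end. No protein-coding gene overlapped the first piece, and the nearest, *LUZP2*, which encodes a leucine zipper protein, began 519 kb beyond it.

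Both pieces were in frequent contact in SNU-C1, as the map of read pairs between them shows. The rectangle of 88 bin pairs held 178650 read pairs in SNU-C1 (95% interval 177823 to 179480), from 1188 to 4870 per bin pair. It held 55 in SW480 (41.4 to 71.6), with 25 and 30 in replicates 1 and 2, 10 in HCC1954 (4.80 to 18.4) and 21 in OE33 (13 to 32.1). All 88 bin pairs had read pairs in SNU-C1, and the highest value of a bin pair elsewhere was 4. The ratio of observed to expected contacts (O/E), the corrected value over the mean at the same distance on all chromosomes, was 52.9 in SNU-C1, 0.633 in SW480, 0.383 in HCC1954 and 0.468 in OE33. Iterative correction divides each bin by its own total and so lowers the contacts of bins with many copies. Without the correction the O/E of SNU-C1 was 2892, and those of SW480, HCC1954 and OE33 were 0.859, 0.243 and 0.513.

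**Figure D2:**
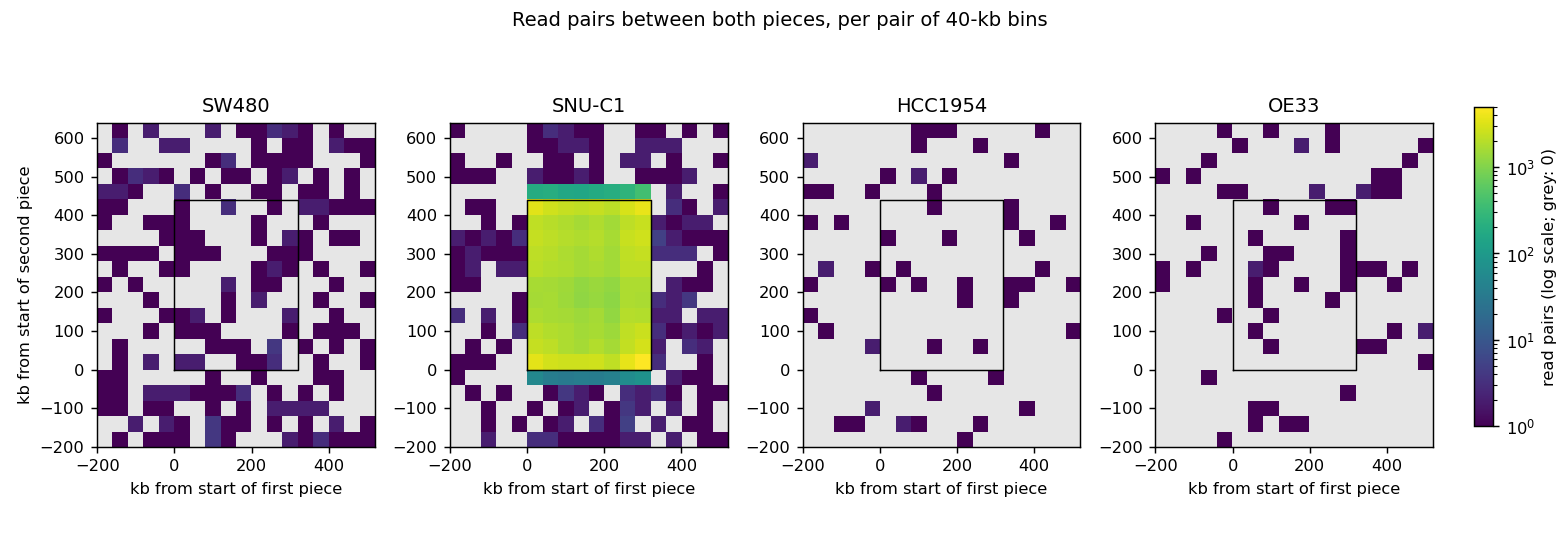
Read pairs of each pair of 40-kb bins (colour, log scale, grey for 0) between the first piece (horizontal axis, kb from its start) and the second piece (vertical axis, kb from its start) in the 4 lines. The black outline marks the 88 bin pairs of both pieces, which held 178650 read pairs in SNU-C1 and at most 55 in any other line.

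Around the rectangle, contacts dropped steeply. In a ring 2 to 3 bins outside the rectangle, over 108 bin pairs, SNU-C1 had 106 read pairs and an O/E of 0.440 (0.360 to 0.532). The same ring held 73 read pairs in SW480, 13 in HCC1954 and 17 in OE33, at O/E of 0.698, 0.420 and 0.319. Without correction the O/E of the ring was 1.42 in SNU-C1, 0.929 in SW480, 0.258 in HCC1954 and 0.338 in OE33, so SNU-C1 was above the other lines on that scale only. The bin at 34.88 Mb shared 376 read pairs with the first piece and the bin at 35.36 Mb shared 1739, whereas the bins beyond them at 34.84 and 35.40 Mb shared 13 and 8. Contacts with the first piece thus ended within the same bins as the coverage.

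Within the rectangle, contacts were highest where ends of both pieces met. The bin pair of the end of the first piece (23.96 Mb) and the start of the second (34.92 Mb) had 4870 read pairs, the most of any. The other corners had 3824 (end with end), 3543 (start with start) and 3410 (start of the first with end of the second), and the bin pair at the middle of both had 1391. After correction these contacts were 95, 76.7, 62.2, 61.5 and 23.8, so the order of the corners was the same on both scales. For scale, the expected corrected contact of bins 40 kb apart was 336, and that of bins at the distance of the first of these corners was 0.676. All 4 corners were thus higher than the middle, and the other lines had at most 2 read pairs at any of these bin pairs.

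Summed over 3 by 3 bins, the contact that exceeded the other lines by the largest factor within the rectangle joined the bins at 23.72 and 35.28 Mb. It had 21052 read pairs (20769 to 21338) and an O/E of 58.9 in SNU-C1. The same sum was 4 in SW480, with 2 in each replicate, 1 in HCC1954 and 2 in OE33, at O/E of 0.378, 0.264 and 0.430. After 0.5 was added to each O/E, SNU-C1 was 63.8 times the highest other line. Its far end lay in *SLC1A2*, within 1 bin of *CD44*, and its near end in no protein-coding gene.

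Contacts within each piece were also more frequent in SNU-C1. The first piece had 125547 read pairs between its own bins in SNU-C1, 4417 in SW480, 876 in HCC1954 and 1600 in OE33. The second had 479561 in SNU-C1, 14944 in SW480, 9843 in HCC1954 and 8331 in OE33. The values of the second piece in SW480 replicates 1 and 2 were 7413 and 7531, so the replicates differed by far less than SNU-C1 differed from any line. After correction the O/E within the pieces was 0.717 and 0.707 in SNU-C1 and ranged from 0.831 to 1.41 in the other lines. Without correction it was 30.2 and 70.7 in SNU-C1 and from 0.277 to 2.18 elsewhere. Whether contacts within the pieces were above or below those of the other lines therefore depended on the correction.

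Of all read pairs of both pieces within chromosome 11, 89.6% (89.6 to 89.7) lay within or between them in SNU-C1. The share was 21.5% in SW480, with 21.6% and 21.5% in the replicates, 26.8% in HCC1954 and 20.4% in OE33. The pieces make up 760 kb. The remaining read pairs, between the pieces and the rest of the chromosome, numbered 90525 in SNU-C1, 70803 in SW480, 29370 in HCC1954 and 38794 in OE33. Relative to the median bin and to the other lines, this remainder was 1.85 in SNU-C1, 1.24 in SW480, 0.615 in HCC1954 and 0.806 in OE33. Relative coverage over all contacts was 19.8 and 22.3 in the pieces of SNU-C1, so contacts with the rest of the chromosome were raised far less than contacts among the pieces.

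That remainder differed with distance. For bins 1 to 5 Mb from the first piece, read pairs over expected without correction were 1.04 in SNU-C1, 1.28 in SW480, 0.615 in HCC1954 and 1.35 in OE33. For the second piece they were 0.938, 1.06, 0.851 and 0.912. On this scale SNU-C1 lay within the range of the other lines. After correction the O/E at 1 to 5 Mb was 0.165 for the first piece in SNU-C1 and 1.20 to 1.63 in the other lines, and 0.0932 for the second in SNU-C1 and 0.648 to 0.748 in the others, so SNU-C1 was then below every other line. At 50 to 100 Mb, the first piece had 6.09 (5.88 to 6.31) in SNU-C1, 1.20 in SW480, 0.288 in HCC1954 and 0.925 in OE33. The second piece had 8.12 (7.90 to 8.36) in SNU-C1, 1.25 in SW480, 1.13 in HCC1954 and 1.06 in OE33. SNU-C1 was therefore above all other maps at large distances, as the plot by distance shows, and the SW480 replicates at 50 to 100 Mb lay between 1.19 and 1.3 for both pieces. After correction SNU-C1 had 0.955 and 0.835 at these distances, inside the range of the other lines for both pieces.

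**Figure D3:**
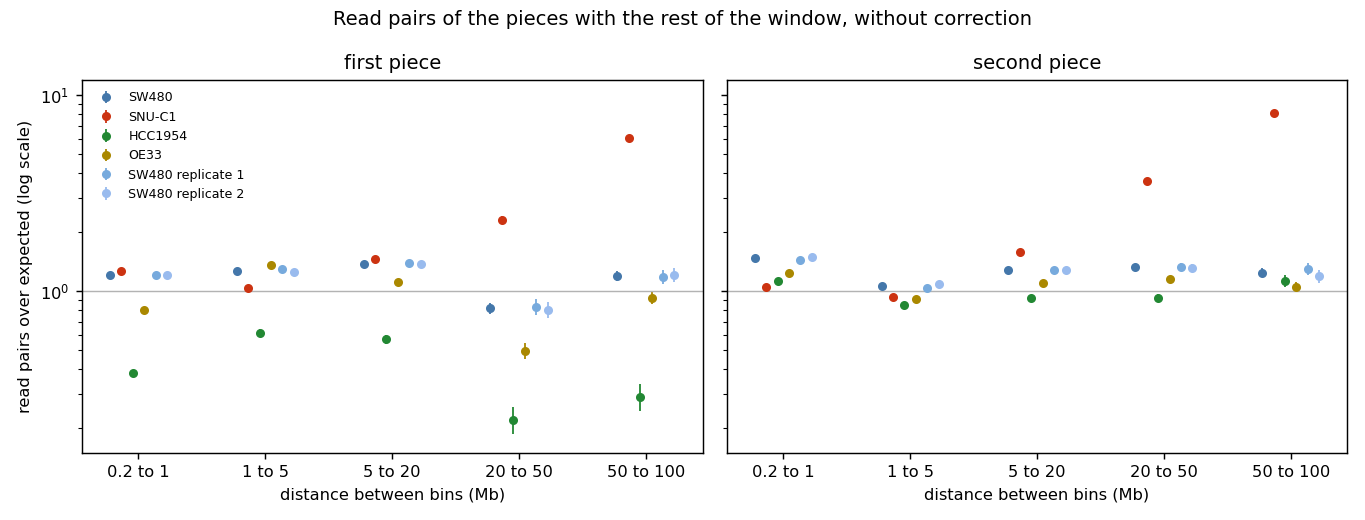
Read pairs over expected without correction (log scale) between each piece and the rest of the window, by distance between bins in Mb, in all 6 maps, with 95% Poisson intervals. SNU-C1 lies near the other maps up to 5 Mb and reaches 6.09 and 8.12 at 50 to 100 Mb, where the other maps reach at most 1.3.

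The third bin of interest, at 13.20 to 13.24 Mb, had contacts with both pieces. With the first piece, 10.48 Mb away, it shared 887 read pairs (830 to 947) in SNU-C1, 6 in SW480, 2 in HCC1954 and 1 in OE33. With the second, 21.72 Mb away, it shared 2217 (2126 to 2311) in SNU-C1, 12 in SW480, 3 in HCC1954 and 15 in OE33. The O/E of these contacts in SNU-C1 was 17.5 and 40.3, and the highest in any other line was 2.86. Without correction it was 173 and 637 in SNU-C1 and at most 4.39 elsewhere. Its neighbours shared 6 and 11 read pairs with the first piece and 17 and 23 with the second, so the contact was limited to a single bin.

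The relative coverage of this bin in SNU-C1 was 1.51, between neighbours of 0.872 and 0.871, and 1.16 in SW480, 0.674 in HCC1954 and 0.865 in OE33. It was chosen among bins at least 2 Mb from both pieces. Its smaller number of read pairs with either piece was 887, whereas the next such value among these bins was 29. Its read pairs with the pieces are part of its coverage, so coverage values of this bin are not independent of that choice. When only pairs at least 5 Mb apart were counted, its relative coverage was 6.39 in SNU-C1 and at most 1.11 in the other lines, and that of the pieces was 43.6 and 26.9. Such pairs include the contacts among the pieces and the third bin. The third bin overlapped no protein-coding gene, and the nearest was *BMAL1*, which encodes a transcription factor of the circadian clock, 58.2 kb away.

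Coverage of the chromosome between the pieces was close to that of its flanks. Across 271 bins between the ends, without the bin next to each piece, the median relative coverage in SNU-C1 was 0.929, and across 250 bins of the flanks of 5 Mb on each side it was 0.976, a ratio of 0.952. It was 1.04 from pairs at least 5 Mb apart and 1.05 against the rest of the short arm, so its side of 1 depended on the setting. The ratio was 0.923 in SW480, with 0.928 and 0.916 in replicates 1 and 2, 1.19 in HCC1954 and 1.06 in OE33. SNU-C1 lay between SW480 and OE33. The highest of these 271 bins had 1.38, and the bins left out next to the pieces had 1.42 and 1.63. Relative coverage counts all copies of a sequence together, so normal chromosomes and derived DNA could not be told apart.

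Outside the pieces, segments of SNU-C1 that began on the short arm ranged from 0.633 to 1.09, and the lowest segment of the window lay in 11q13. Least squares segmentation of log2 relative coverage in 200-kb blocks gave 33 segments in SNU-C1, 21 in SW480 (22 and 20 in the replicates), 29 in HCC1954 and 19 in OE33. Of the SNU-C1 segments, 3 had at least 4 and these were the blocks of the pieces, and 1 further block of the second piece had 3.91. The lowest segment of SNU-C1 had 0.451 at 68.8 to 70.6 Mb, between neighbours of 0.638 and 0.656. In HCC1954 the highest segments had 3.15 at 101.8 to 104.0 Mb and 2.72 at 94.2 to 95 Mb. The highest segment of OE33 had 1.90 and that of SW480 1.5, so neither line held a segment near the level of the SNU-C1 pieces.

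Genes in 3 lists placed these levels on known loci. Of 30 listed genes of the short arm, 3 had at least 4 in SNU-C1, namely *CD44* at 24.0, *PDHX* at 22.2 and *SLC1A2* at 12.7, and no listed gene reached 4 in another line. Of all usable bins of the window, 19 of 2684 (0.708%) had as much in SNU-C1, and because the 3 genes overlap the second piece, which was chosen by this value, they are not independent of it or of each other. The median over the list was 0.931 in SNU-C1, against 0.880 for all bins of the window. *APIP* had a median of 1.63. That of *SLC1A2* mixes raised and unraised bins, from 0.819 to 24.0, because the gene crosses the edge of the piece. The lowest of the list was *PTPRJ*, a receptor tyrosine phosphatase gene, with 0.611 in SNU-C1, 1.59 in SW480, 0.689 in HCC1954 and 1.45 in OE33. Genes on either side of the second piece, such as *EHF*, an epithelial ETS factor gene (0.932), and *TRAF6*, a signalling adaptor gene (0.972), were close to the list's median in SNU-C1.

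All 13 listed genes of 11q13 to 11q14 had less than 1 in SNU-C1, with a median of 0.468. Values below 1 were common in that line, at 2063 of 2684 bins of the window (76.9%), and the median over all bins was 0.880. *CCND1*, which encodes cyclin D1, had the lowest value in SNU-C1, 0.328, and had 0.665 in SW480, 1.79 in HCC1954 and 1.5 in OE33. Relative coverage at *CCND1* was thus higher in HCC1954 and OE33 than in both colon cancer lines. The highest gene of the list in SNU-C1 was *EMSY*, whose product binds BRCA2, with 0.927, and the highest in OE33 was *MEN1*, the menin tumour suppressor gene, with 2.61. Relative coverage is set against the other lines, so a gain in these lines lowers the value of SNU-C1.

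The 11 listed genes of 11q22 to 11q23 ranged from 0.810 at *BIRC3*, a gene of an inhibitor of apoptosis, to 1.36 at *CADM1*, a cell adhesion gene, in SNU-C1. In HCC1954, 5 of them had more than 3, as did 40 of 2684 bins of the window (1.49%), whose median was 0.845 in that line. The 5 genes lie close together on the segment from 101.8 to 104.0 Mb and are not independent values. These were *MMP7* (3.82) and *MMP1* (3.23), which encode matrix metalloproteinases, *BIRC3* (3.68) and *BIRC2* (3.45), and *YAP1* (3.47), the coactivator of the Hippo pathway. The same 5 genes lay between 0.810 and 0.903 in SNU-C1.

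**Figure D4:**
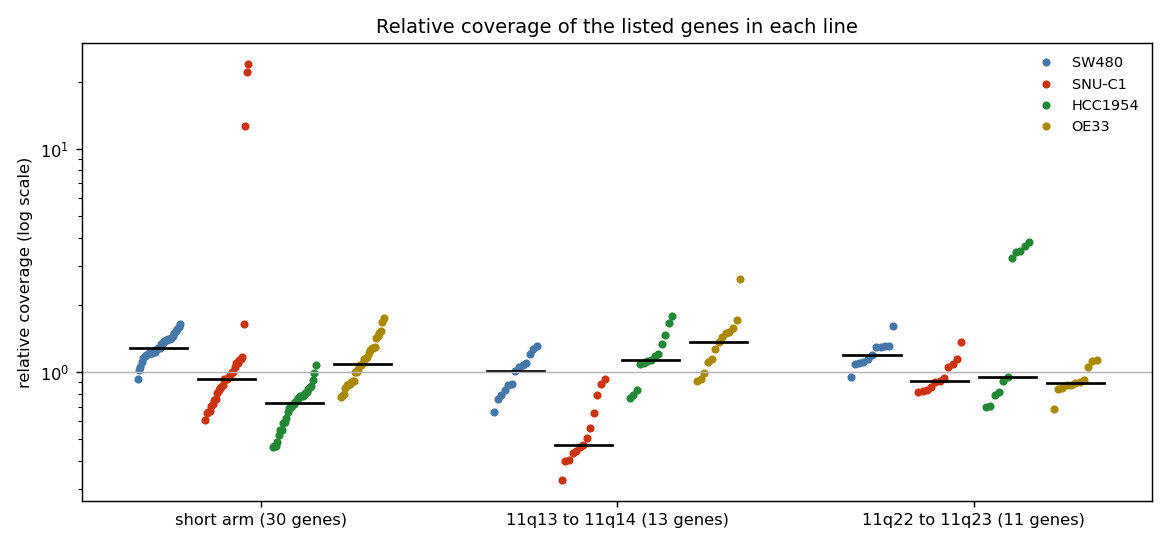
Relative coverage (log scale) of the listed genes of chromosome 11 in each of the 4 lines, 1 point per gene and a black bar for the median. In SNU-C1, 3 short-arm genes lie at 12.7 to 24.0 and the genes of 11q13 to 11q14 lie below 1, while in HCC1954 5 genes of 11q22 to 11q23 lie above 3. The point at 12.7 is *SLC1A2*, whose median mixes raised and unraised bins.

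Other line-specific contacts were sought over the whole window. Bins separated by 2 Mb or more were called as a contact of a line when their O/E over 3 by 3 bins reached 4 and exceeded that of every other line by a factor of 4, after 0.5 was added to each, with 10 or more recovered read pairs. Of 3473078 bin pairs tested, 235 were called in SNU-C1, 161 in SW480, 2501 in HCC1954 and 100 in OE33. Over all chromosomes the called share of bin pairs was 0.028% for SNU-C1, 0.00608% for SW480, 0.0298% for HCC1954 and 0.00895% for OE33, and in the window it was 0.00677%, 0.00464%, 0.0720% and 0.00288%. With blocks of 200 kb, 12 of 140297 pairs were called in SNU-C1, 2 in SW480, 115 in HCC1954 and 6 in OE33, beside 0.0399%, 0.0104%, 0.0423% and 0.017% over all chromosomes. Nothing is read from these shares, because the same contrast chose the contacts.

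Adjacent called bin pairs were grouped into 39 contacts in SNU-C1, 126 in SW480, 199 in HCC1954 and 64 in OE33. In SNU-C1, 5 contacts had 100 or more read pairs, from 305 to 21052, and all joined the pieces and the third bin to each other. The other 34 had 10 to 16 read pairs. Of these, 9 had an end in a piece and the other end between 116.84 and 121.28 Mb, at O/E of 4.24 to 5.58, and 8 of the 9 ended in the first piece. Counts are small there, and 25 called bin pairs of SNU-C1 had exactly 10 read pairs, just inside the minimum, whereas 33 pairs that met the other conditions had 9 and were left out.

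Neither SW480 nor OE33 had a contact of that size. The highest count was 28 read pairs in SW480, between 102.40 and 122.16 Mb, and 31 in OE33, between 90.24 and 97.64 Mb. Of the 126 SW480 contacts, 78 had an O/E of at least 4 in both replicates. The contacts were called in the SW480 map that was taken to pool these replicates, so this count is not an independent check. Pairs with 9 against 10 read pairs numbered 99 and 57 in SW480, 124 and 103 in HCC1954, and 33 and 20 in OE33. Contacts with 10 to 19 read pairs made up 87.2% of those of SNU-C1, 96.0% of SW480, 74.4% of HCC1954 and 93.8% of OE33, so most contacts of every line stood near the minimum.

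In HCC1954, 5 contacts had 100 or more read pairs, all on the long arm. The strongest by count joined 88.12 Mb, next to the protease gene *CTSC*, and 94.12 Mb, in *GPR83*, a G protein-coupled receptor gene beside the double-strand break repair gene *MRE11*, with 1086 read pairs (1022 to 1153) and an O/E of 38.7. The same bins had 5 read pairs in SNU-C1, 11 in SW480 and 10 in OE33. The bin at 70.60 Mb in *SHANK2*, a synaptic scaffold gene, met 94.16 Mb with 893 read pairs and 88.08 Mb with 520, at O/E of 146 and 75.5. These 3 places were therefore all in contact with each other in HCC1954, and SNU-C1 had 0 and 1 read pairs at the last of these contacts.

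The remaining contacts of HCC1954 joined 65.48 Mb, at the histone acetyltransferase gene *KAT5*, to 98.84 Mb near the contactin gene *CNTN5*, with 444 read pairs and an O/E of 182, and 73.24 Mb in *FAM168A* to 85.16 Mb in *DLG2*, a synaptic scaffold gene, with 265 and 43.8. SNU-C1 had 0 read pairs at either, which a Poisson interval bounds at 3.69. Relative coverage of HCC1954 at these ends ran from 0.989 at 73.24 Mb to 3.21 at 88.12 Mb. Ends at 94.12, 94.16 and 98.84 Mb lay within 0.06 Mb of a segment edge of HCC1954. The other ends lay from 0.14 Mb (at 73.24 Mb) to 2.3 Mb (at 88.08 Mb) from the nearest edge. Segment edges fall on blocks of 200 kb, so distances below that size are not resolved. In HCC1954 no end thus came near the 18.4-fold coverage of the lowest bin in the SNU-C1 pieces.

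Compartments were scored by the first eigenvector of the correlation of O/E in 539 blocks of 200 kb, positive in gene-rich blocks. Across blocks, which are not independent replicates, Pearson's r between SNU-C1 and SW480 was 0.943, with OE33 0.924 and with HCC1954 0.783, and the SW480 replicates had 0.997. SNU-C1 shared its sign with SW480 in 90.4% of blocks, and the replicates shared theirs in 98.3%. SNU-C1 was alone in its sign in 15 blocks, SW480 in 15, HCC1954 in 61 and OE33 in 11. Without correction the count of SNU-C1 was 5. In the corrected maps, the blocks of this kind with an eigenvector of at least 0.5 in size in all 4 lines numbered 2 in SNU-C1, 0 in SW480, 13 in HCC1954 and 0 in OE33. The first eigenvector explained 21.5% of the variance in SNU-C1, 32.4% in SW480, 13.3% in HCC1954 and 31.8% in OE33. Of the 61 blocks where HCC1954 was alone in sign, 59 were positive. Its eigenvector differed between the arms among blocks negative in all lines. For example, at 39.0 and 97.0 Mb it was -1.88 and -0.67, against -1.20 and -1.25 in SW480. How far this enters the count and r of HCC1954 was not tested. With the eigenvector of each arm taken separately, SNU-C1 was alone in 17 blocks.

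The first piece was among the blocks where SNU-C1 stood alone. Its blocks at 23.6 and 23.8 Mb had eigenvector values of 0.20 and 0.78 in SNU-C1, and -1.01 and -0.84 in SW480, -1.87 and -1.58 in HCC1954, and -1.32 and -1.30 in OE33. The replicates of SW480 ranged from -0.96 to -0.73 there. The 3 blocks of the second piece were positive in all maps, at 0.80 to 1.04 in SNU-C1 and 0.86 to 1.28 in the other lines. The block of the third bin was positive too, at 1.04 in SNU-C1 and 0.73 to 1.05 elsewhere. Between the pieces, 12 of 54 blocks were positive in SNU-C1, against 11 in SW480 and 15 in each of HCC1954 and OE33. The eigenvector of the second block of the first piece was 1.0 when contacts among the pieces and the third bin were set to an O/E of 1, a setting chosen after the data were seen, and 0.23 with blocks of 400 kb. It was 0.34 with each arm scored separately and 1.12 without correction.

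Insulation scores, with a window of 1 Mb, gave 113 boundaries in SNU-C1, 112 in SW480, 117 in HCC1954 and 108 in OE33. Of the SNU-C1 boundaries, 78 (69.0%) lay within 2 bins of a boundary in all 3 other lines and 5 in none of them. SW480 replicates 1 and 2 shared 107 boundaries. The start of the second piece at 34.92 Mb was a boundary in all 6 maps, in the bin that holds the starts of *APIP* and *PDHX*, with a strength of 1.05 in SNU-C1, 0.463 in SW480, 0.596 in HCC1954 and 0.657 in OE33. The end of the piece had its nearest boundary at 35.40 Mb in SNU-C1, inside *SLC1A2*, at 35.48 Mb in SW480 and at 35.44 Mb in HCC1954 and OE33. Strengths there were 1.81, 1.15, 0.915 and 0.898, and that of SNU-C1 was its highest in the window.

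The second piece thus lay close to the span between a pair of boundaries that the other lines also had. The ends of the first piece were 400 and 720 kb from the nearest boundary in SNU-C1 and from 280 to 800 kb in the other lines. The score at 34.92 Mb, the mean of the bins on both sides of it, was -1.24 in SNU-C1, -0.03 in SW480, -0.25 in HCC1954 and -0.31 in OE33, with -0.05 and -0.01 in the SW480 replicates. These scores depended on the correction. Without it, the score at 34.92 Mb in SNU-C1 was 0.18, the boundary nearest to it lay 600 kb away with a strength of 4.81, and the middle of the piece had 4.61 in place of -0.54. In SW480, HCC1954 and OE33 the boundary at 34.92 Mb was present without the correction as well. The share of the correction in the boundary strengths of SNU-C1 at this piece was not tested.

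**Figure D5:**
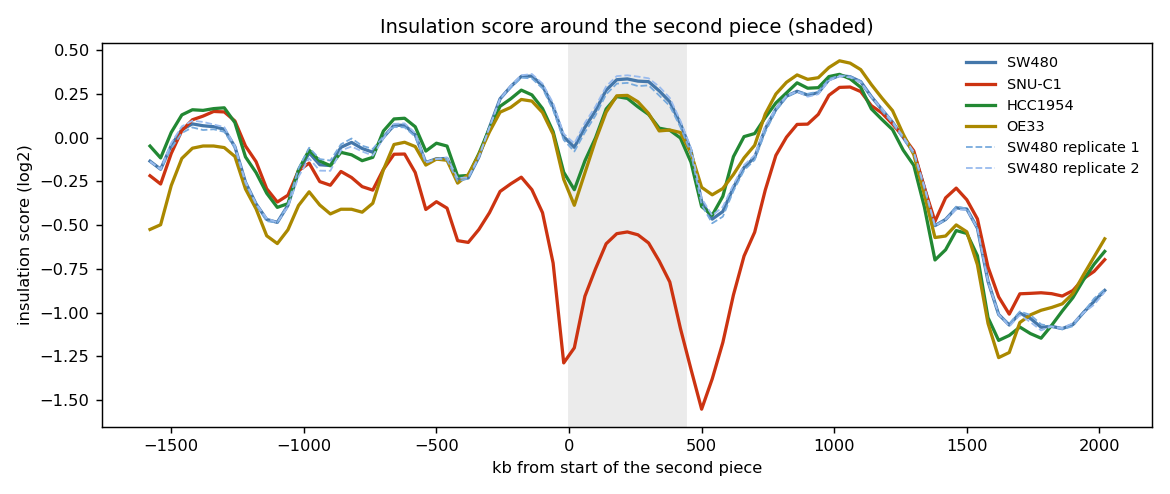
Corrected insulation score (log2) against distance in kb from the start of the second piece (shaded) in the 4 lines (solid) and SW480 replicates (dashed). All maps have minima at the start of the piece and beyond its end, and SNU-C1 is lower than the others across the piece, at -1.24 at its start.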

How the data were processed

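In situ Hi-C maps of 4 cancer cell lines were used, of which SW480 had 3 and the others 1 each. Libraries had been cut with MboI. Per the authors, hg19 was the reference build, BWA-MEM the aligner and Picard the tool against duplicates, and iterative correction was applied to matrices from their own code. The sources used here do not give versions or read filters. The deposited values are a signal, namely how often 40-kb bins met after correction, and the deposited list of bins holds numbers of bins (other values) with hg19 coordinates. Samples were grouped by the cell line in their labels.

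Bin factors were fitted in 45 iterations to pairs at least 5 Mb apart, and the products of value and factors, whole within 0.02 for 100% of chromosome 11 values up to 20.5, gave read pairs and depth, which sets the width of the intervals. A bin whose coverage fell under 0.25 of the median of a line was left out of all lines. The expected value was the mean at each distance over all chromosomes, smoothed over 10% beyond 5 Mb. Segments came from least squares with a penalty of 4 times the noise term, compartments from O/E capped at 10, and boundaries from a change over 200 kb with a strength of at least 0.1. Alternatives changed the correction, expected value, block size, thresholds, coverage measure and SW480 map. No line had independent maps other than SW480, so no test was made. Calculations were tested on simulated data. Pairs between chromosomes were used in the closing section only.

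Members, gene lists and thresholds were chosen with earlier results of these data known. Named genes overlap the end bins, or lie nearest to them, of contacts with 100 or more read pairs in a line, a minimum chosen after the data were seen, or come from the 3 lists, where the highest and lowest and those at ends of contacts were named, with *EHF*, *TRAF6*, *DYNC2H1* and *ITPR1* added later. *BIRC2*, *YAP1* and *POU1F1* were also named outside these rules. Gene positions came from GENCODE v44 lifted to GRCh37. Files were read with PyArrow 21.0.0 and pandas 2.3.3, values were computed in Python 3.11.15 with SciPy 1.17.1 and NumPy 2.4.6, and plots were drawn with Matplotlib 3.10.9.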

Additional observations from a re-analysis of the deposited data

Results flagged for a closer look

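Read pairs of chromosome 11 with other chromosomes entered no comparison of the report, and SNU-C1 stood above HCC1954 and OE33 in those of both pieces and the third bin. Over the window as a whole SNU-C1 was the lowest, at 467 such read pairs in its median bin, whereas HCC1954 had 569 and OE33 1475.5. Pairs of this kind are nearly missing from the SW480 maps, which were left out. Over its bins, the first piece had 176030 read pairs with other chromosomes in SNU-C1, 47.1 times the median bin of the window (46.9 to 47.3). The ratio was 0.357 in HCC1954 and 0.660 in OE33. The second piece had 417925 read pairs, 81.4 times the median bin (81.1 to 81.6), against 1.81 and 1.21. The third bin had 4.96 times the median bin, against 0.954 and 1.42.

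In SNU-C1, chromosome 3 had the most read pairs with the pieces, 2172 per 100 usable bins, followed by chromosome 13 with 1682, and the 3 bins with the most read pairs all lay on chromosome 3. These bins held 53.5% of its read pairs, and without them chromosome 3 had 1011 per 100 bins, below chromosomes 13, 20 (1343), 8 (1307) and 15 (1072). The bin at 4.68 Mb of chromosome 3, in *ITPR1*, a gene of a calcium channel of the endoplasmic reticulum, had 40022 read pairs with both pieces (39631 to 40416). The next bin, at 4.72 Mb in the same gene, had 10148 (9952 to 10347). The bins on either side of these, at 4.64 and 4.76 Mb, had 2 and 20. The bin at 87.44 Mb, 114 kb from *POU1F1*, a pituitary transcription factor gene, had 5726 (5579 to 5876), with 21 and 22 in its neighbours. In HCC1954 and OE33 each of these bins had at most 1 read pair with the pieces. All 3 bins also met the third bin, with 392, 371 and 218 read pairs, and all had their highest count with the start of the second piece at 34.92 Mb. Their relative coverage in SNU-C1 was 1.98, 1.89 and 1.92. The neighbours at 4.64 and 4.76 Mb had 1.09 and 1.01, and those on either side of 87.44 Mb had 1.56 and 1.75.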

How the results depend on the processing

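Of 93 values under alternatives, 48 stayed within a limit and 45 did not. Some of the 48 could not change. The number of SNU-C1 boundaries and the SNU-C1 eigenvector do not use the SW480 map, and that number does not use the matching distance. The limit was a factor of 1.5 for counts, the counting interval for the ratio of the contact, and 1 SD of the SW480 replicates for the coverage ratio and the eigenvector. The ratio of the SNU-C1 contact was 3031 without correction, 59.1 with the expected value of the window alone, 35.7 over 5 by 5 bins and 41.9 with 1 added, and 63.8 without either SW480 replicate. Block pairs of SNU-C1, 12, became 266 without correction, 5 in 400-kb blocks, 6 at thresholds of 8 and 132 with no minimum of read pairs, and 13 to 14 without a replicate. Those of HCC1954, 115, became 427, 31 and 36 under the first 3 of these, and were 111 to 115 without a replicate. Those of SW480, 2, became 16 without correction, 1 with the expected value of the window, 0 in 400-kb blocks, 1 with 1 added, 0 at thresholds of 8, 11 with no minimum and 4 with the higher coverage limit of 0.5, and 2 to 5 without a replicate. Those of OE33, 6, became 10 with the expected value of the window, 0 in 400-kb blocks, 1 with 1 added, 0 at thresholds of 8, 16 with no minimum and 1 with the higher coverage limit.

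The ratio of coverage between the ends to the flanks was 1.04 from pairs at least 5 Mb apart, 0.92 with flanks of 2 Mb, 1.05 against the rest of the short arm, both above 1 where the reported ratio lay below it, and 0.979 as a mean, and 0.952 to 0.953 without a replicate. SNU-C1 had 20 segments with the penalty doubled, 51 with it halved, 17 in 400-kb blocks and 16 from pairs at least 5 Mb apart. SW480 had 10, 39 and 10 under the first 3, HCC1954 had 45 with the penalty halved, and OE33 had 12 with it doubled and 43 with it halved. Blocks with a compartment sign of SNU-C1 alone numbered 5 in 400-kb blocks, 5 without correction and 15 to 17 without a replicate. Boundaries of SNU-C1 ranged from 111 to 136. Those also found in all 3 other lines, 78, became 54 when matched within 1 bin, 65 without correction and 96 with a window of 480 kb. The 2 raised runs of SNU-C1 were found at thresholds of 2 and 8 and from pairs at least 5 Mb apart, which were settings chosen after the data were seen. A threshold of 8 could not change the runs, because their lowest bin had 18.4 and the highest bin just outside had 2.24. Pairs at least 5 Mb apart include those between both pieces, so that setting is not independent of the contact. The cause of each shift was not tested. No paired analysis was possible because 3 of the 4 lines had 1 map each, so the groups shared fewer than 2 replicate numbers.

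Bins of 40 kb set the resolution, so junctions could not be placed within a bin or given an orientation. Where a bin pair has few read pairs, as for most contacts outside the pieces, a difference between lines was within counting error or near the minimum. Of 4 lines, 3 had 1 map each, so the spread between libraries is known for SW480 only. Correction fitted to each map lowers the contacts of highly covered bins, and both scales are needed to read the pieces.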
